A study of Mus musculus with 30 samples.

Results

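The late course of adipogenesis in untreated 3T3-L1 cells was read from the control cultures at 12 days and at 24 h. The members are the 10 of 30 RNA-seq libraries that the labels name Control 12 days (5 culture replicates) or Control 24 hrs (5 culture replicates), and 11706 named genes were compared between them. 3T3-L1 is a mouse fibroblast line whose cells can turn into fat cells. All 10 cultures were in a differentiation medium with the phosphodiesterase inhibitor isobutylmethylxanthine, insulin and fetal serum, and none received quizalofop-p-ethyl, the herbicide whose effect the study tested in other cultures at 6 h, 24 h and 12 days. The labels call the cells of both groups differentiated, place dexamethasone in neither group, do not say from which event the hours and days are counted, and describe medium changes over fewer than 12 days. The cells were grown in multiwell plates, and nothing in the labels says whether the numbered cultures came from separate experiments, so p-values measure the spread between these cultures.

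In this line, growth-arrested preadipocytes given an inducing medium first re-enter the cell cycle for a few rounds of division, called mitotic clonal expansion, and then leave it for good. C/EBP beta and C/EBP delta are induced early and raise PPAR gamma and C/EBP alpha, which keep each other on and switch on the genes of fat storage. The maturing cell takes up and makes fatty acids, stores them as triglyceride in perilipin-coated droplets, secretes adipokines such as adiponectin, expands its mitochondria and loses the stress fibres and part of the matrix of a fibroblast.

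The values are the authors' FPKM (fragments scaled for transcript length and library size), summed over the transcripts of a gene, and differences are on the log2(FPKM + 1) scale, which understates the change of genes of low level. A gene was called when its adjusted p in limma (Benjamini-Hochberg, two-sided) was under 0.05. At 12 days 1391 genes (11.9% of those tested) were called higher than at 24 h and 2186 (18.7%) were called lower, 30.6% in all. The groups did not overlap, with all 12-day libraries above all 24 h libraries, in 9.63% of tested genes, and the other way in 15.3%, 24.9% in all. With median-ratio scaling the calls were 1705 higher and 1591 lower, so that the share of higher calls was 51.7% in place of 38.9%, and the median log2 difference of all tested genes was -0.02 in place of -0.09. Large rises outnumbered large falls, since 69 genes rose by more than 2 log2 units and 12 fell by more than 2. The FPKM of all transcripts summed to between 429602 and 453699 in the 10 libraries, 11367 to 11692 genes reached 1 FPKM in each, and the depth in reads is not known. In bulk RNA, fewer cells of a kind and less RNA per cell cannot be told apart.

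Replicates 3 and 4 at 12 days stood apart from replicates 1, 2 and 5 at 12 days. The first principal component of the 10 libraries (35.5% of the variance) separated the times, and the second (15.1%) separated replicates 3 and 4 at 12 days from the rest. These libraries were the lowest pair at 12 days for 22.8% of all tested genes, but for 48 of the 68 tested members (70.6%) of the lists of fatty acid uptake, fatty acid synthesis, triglyceride assembly, lipid droplets and adipokines. At 24 h the same replicate numbers were the lowest pair for 15.3% of all tested genes and for 24 of those 68 (35.3%). The labels give no reason for this, and many of the lists below are given also over replicates 1, 2 and 5 of both times and over replicates 3 and 4 of both times. Because these sets were chosen from the values, which narrows the spread within them, the calls and medians within a set are a description. They are not a test of the change in time or of a difference between the sets. Within groups, libraries had a mean correlation of 0.935 across genes at 12 days and 0.949 at 24 h.

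Of the FPKM in these libraries, 10.9 to 12.5% lay in assembled transcripts with no gene name. Adding those that share a locus with a single named gene moved 2.22% of the tested genes by more than 1.5-fold. Of 3577 calls by name, 3480 kept their direction, 96 were lost and 1 changed direction. A further 1123 of the genes tested both ways were called only when joined. In all, the joined sums gave 1793 higher and 2943 lower calls. The median spread within a group was then 0.20 at 12 days and 0.14 at 24 h (SD, log2), against 0.23 at 12 days and 0.17 at 24 h for sums by name. Where this addition moves a named gene by more than 1.5-fold or changes its call, the joined value is given too.

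**Figure D1:**
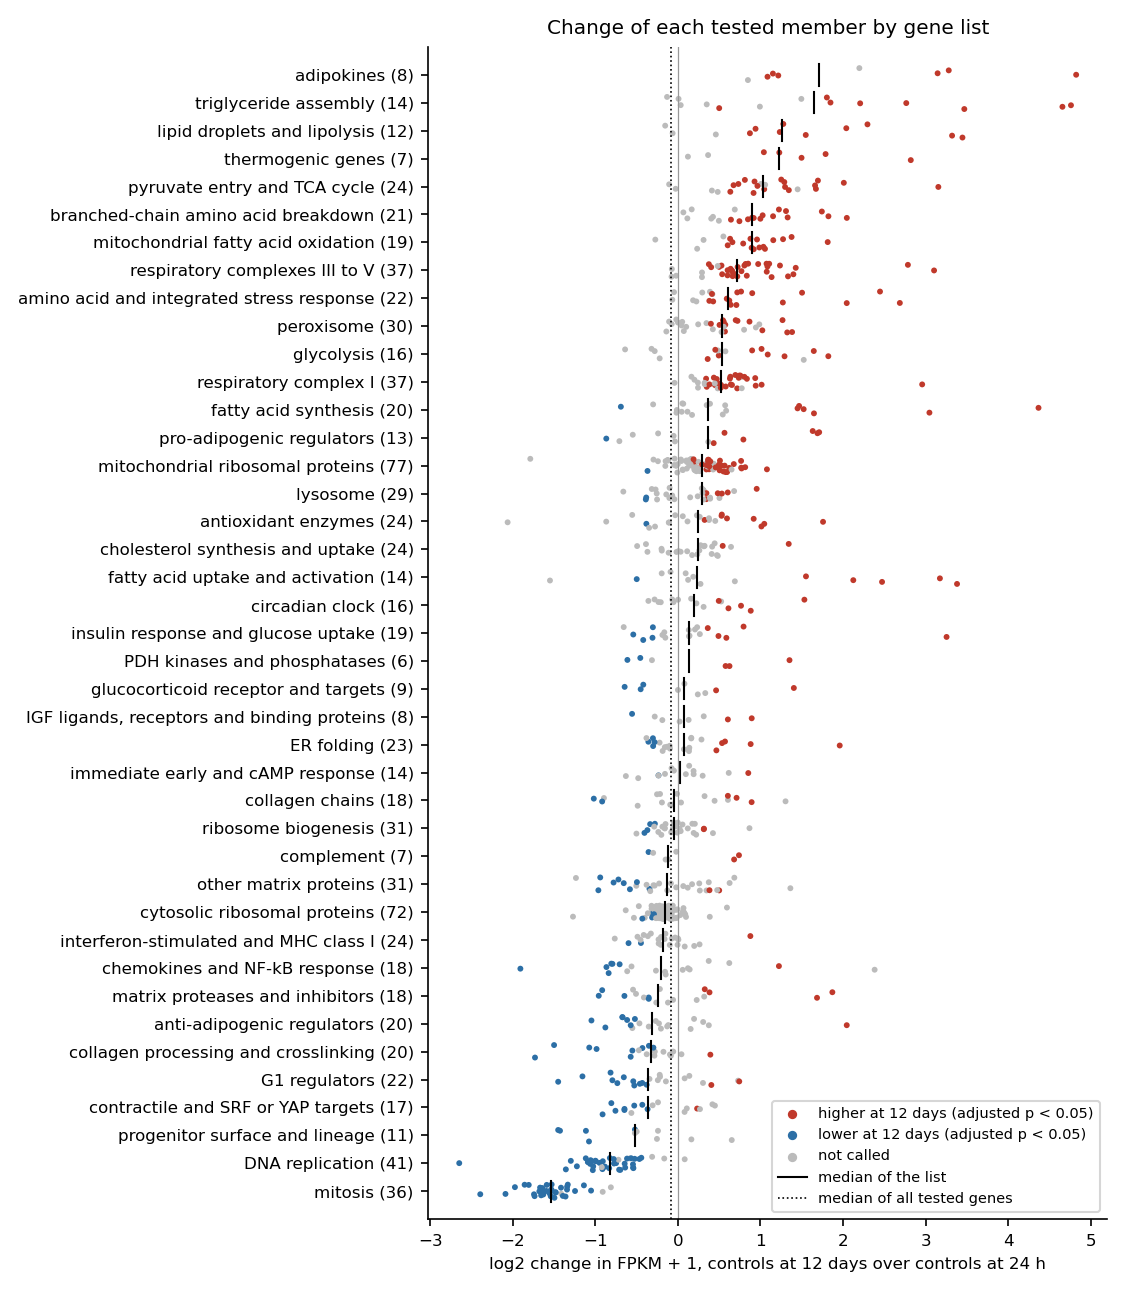
Log2 difference in FPKM + 1 (12 days minus 24 h, horizontal axis) of the tested members of the gene lists, 1 list per row, 1 point per gene, with genes called higher in red, called lower in blue and not called in grey, and the median of each list as a bar. Mitosis (median -1.54) and DNA replication (median -0.82) lie to the left of the median of all tested genes (-0.09), and triglyceride assembly (1.65), adipokines (1.71) and the TCA cycle (1.03) lie to the right.

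Genes of the fat cell took most of the largest rises. Of the 12 genes with the largest rises, all but Phospho1 and Ces1d were members of the lists of fat storage, adipokines or insulin response, and they rose by 3.17 to 4.82 log2 units. The largest was that of a secreted product. Cfd, the gene of adipsin, a serine protease of the alternative complement pathway secreted by fat cells, was at 907, 740, 79.1, 61.0 and 1119 FPKM in replicates 1 to 5 at 12 days and at 20.3, 21.3, 8.06, 1.70 and 16.6 FPKM at 24 h. The groups did not overlap, although replicates 3 and 4 at 12 days lay closer to the 24 h libraries than the other 12-day libraries did, and the log2 difference was 4.82 ± 0.96 (SE, adjusted p = 0.004). Adipoq, the gene of adiponectin, which raises insulin sensitivity, was at 945, 821, 209, 159 and 878 FPKM at 12 days and at 63.7, 77.2, 34.4, 13.4 and 101 FPKM at 24 h, a log2 difference of 3.28 ± 0.67 (adjusted p = 0.0047). Retn, the gene of resistin, was at 48.4, 27.95, 4.41, 6.25 and 39.9 FPKM at 12 days and at 0, 3.82, 2.14, 0 and 1.78 FPKM at 24 h, a difference of 3.15 ± 0.72. Of 14 adipokine genes in the table, 8 were tested, 6 rose and none fell, with a median of 1.71. The other 3 that rose were Rarres2 (chemerin, 1.22 ± 0.26), Nampt (1.15 ± 0.09) and Apln (apelin, 1.09 ± 0.29). Agt, the gene of angiotensinogen, differed by 2.20 ± 0.79 without passing the test (adjusted p = 0.061) and passed it as joined sums (1.49 ± 0.27, adjusted p = 0.0016). Lep, the gene of leptin, averaged 0.32 FPKM at 12 days, was at 0 in all 24 h libraries, and was too low to be tested.

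Enzymes that build triglyceride rose from the glycerol backbone to the last fatty acid. Gpd1, which makes the glycerol 3-phosphate backbone from a glycolysis intermediate, was at 873, 698, 47.5, 27.4 and 886 FPKM at 12 days and at 17.3, 18.9, 4.16, 0 and 26.1 FPKM at 24 h, a log2 difference of 4.76 ± 1.26 (adjusted p = 0.017). The lowest 12-day library, replicate 4, lay just above the highest 24 h library, replicate 5. Agpat2, which adds the second fatty acid and whose loss causes lipodystrophy in people, was at 308, 177, 252, 88.7 and 356 FPKM at 12 days. At 24 h Agpat2 was at 0.0395, 51.6, 15.1, 0.0806 and 44.7 FPKM, a difference of 4.66 ± 1.17. As joined sums Agpat2 was at 310, 256, 253, 172 and 360 FPKM at 12 days and at 38.2, 52.5, 25.9, 16.6 and 44.7 FPKM at 24 h, and the difference was 2.96 ± 0.30. Both sums put every 12-day library above every 24 h library, and the joined sums spread less within the groups. Dgat2 (2.77 ± 0.48) and Dgat1 (2.21 ± 0.20), which add the last fatty acid, both rose, as did Gpat3 (1.85 ± 0.45), Lpin1 (1.80 ± 0.35) and Agpat1 (0.50 ± 0.09). Pck1, which in fat makes glycerol precursor from pyruvate, was at 58.9, 64.4, 2.44, 1.28 and 53.7 FPKM at 12 days and at 0.814, 1.05, 0.135, 0.189 and 1.02 FPKM at 24 h. Its difference was 3.47 ± 0.98 (adjusted p = 0.023, and 0.0045 to 0.054 with 1 library left out). In all 8 of 14 tested members rose and none fell, with a median of 1.65. Over replicates 1, 2 and 5 the median was 1.88 with 8 called higher, and over replicates 3 and 4 it was 1.15 with 3 called higher.

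Genes of the lipid droplet and of fat breakdown rose together. Pnpla2, the gene of ATGL, the lipase that starts triglyceride breakdown, was at 400, 271, 133, 102 and 382 FPKM at 12 days and at 23.9, 26.96, 14.3, 10.7 and 28.8 FPKM at 24 h, a log2 difference of 3.45 ± 0.43 (adjusted p = 0.00031). G0s2, which inhibits ATGL, rose too (2.30 ± 0.63). Cidec, which fuses droplets into large ones, averaged 166 ± 137 FPKM at 12 days and 10.7 ± 6.73 FPKM at 24 h (SD, n = 5 each), and its difference of 3.32 ± 0.94 (adjusted p = 0.023) ranged in adjusted p between 0.0085 and 0.055 with 1 library left out. Plin1, the coat protein that gates lipolysis, was at 193, 224, 41.5, 41.2 and 136 FPKM at 12 days and at 34.0, 28.4, 22.6, 9.82 and 33.7 FPKM at 24 h, a difference of 2.04 ± 0.55 (adjusted p = 0.018). Lipe, the gene of hormone-sensitive lipase, rose by 0.94 ± 0.30 by name and by 2.08 ± 0.37 as joined sums. Plin4 rose by 1.23 ± 0.38 by name and by 1.96 ± 0.19 joined, and Plin2 by 0.87 ± 0.16. Of 20 listed genes with values 12 were tested, of which 9 rose and none fell (median 1.26), with a median of 1.37 (8 higher) over replicates 1, 2 and 5 and of 1.07 (4 higher) over replicates 3 and 4. Plin3, a perilipin found in most cells, differed by -0.15 ± 0.10 and was not called. Ces1d, a carboxylesterase that acts on lipids, rose by 3.48 ± 0.26 outside these lists, at 51.8, 49.5, 25.7, 20.7 and 52.5 FPKM at 12 days and at 2.20, 2.95, 2.47, 2.28 and 2.27 FPKM at 24 h. Phospho1, a phosphatase of phosphocholine and phosphoethanolamine whose locus in the table holds 2 genes, rose by 4.05 ± 0.18, with 36.2 to 58.2 FPKM at 12 days and 0.959 to 2.84 FPKM at 24 h, and replicate 3 was its highest 12-day library.

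Among 14 tested genes of fatty acid uptake and activation, 5 rose and Acsl5 fell (-0.50 ± 0.07), with a median of 0.23. Cd36, the fatty acid receptor, was at 546, 486, 80.1, 45.4 and 417 FPKM at 12 days and at 36.02, 38.5, 13.5, 6.98 and 40.3 FPKM at 24 h, a log2 difference of 3.17 ± 0.79. Fabp4, the fatty acid carrier known as aP2, averaged 1567 ± 1010 FPKM at 12 days and 128 ± 51.9 FPKM at 24 h (SD, n = 5 each), a difference of 3.38 ± 0.56 in a locus that holds 4 genes. Acsl1 (2.47 ± 0.56), the main acyl-CoA synthetase of fat cells, Fabp5 (2.12 ± 0.34) and Cav2 (1.55 ± 0.26) also rose. Lpl, the lipase that frees fatty acids from lipoproteins, depended on how transcripts were summed. By name Lpl was at 45.4, 136, 72.2, 882 and 26.3 FPKM at 12 days and at 347, 387, 280, 203 and 310 FPKM at 24 h, and was not called (-1.55 ± 0.79, adjusted p = 0.17). As joined sums Lpl was at 1905, 2272, 1515, 882 and 1661 FPKM at 12 days with the same 24 h values, and it rose by 2.39 ± 0.25 (adjusted p = 6.4e-05). Joined, 8 members of this list rose and 1 fell. By name the median was 0.42 over replicates 1, 2 and 5 (8 higher, 2 lower) and 0.07 over replicates 3 and 4 (4 higher, 2 lower).

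**Figure D2:**
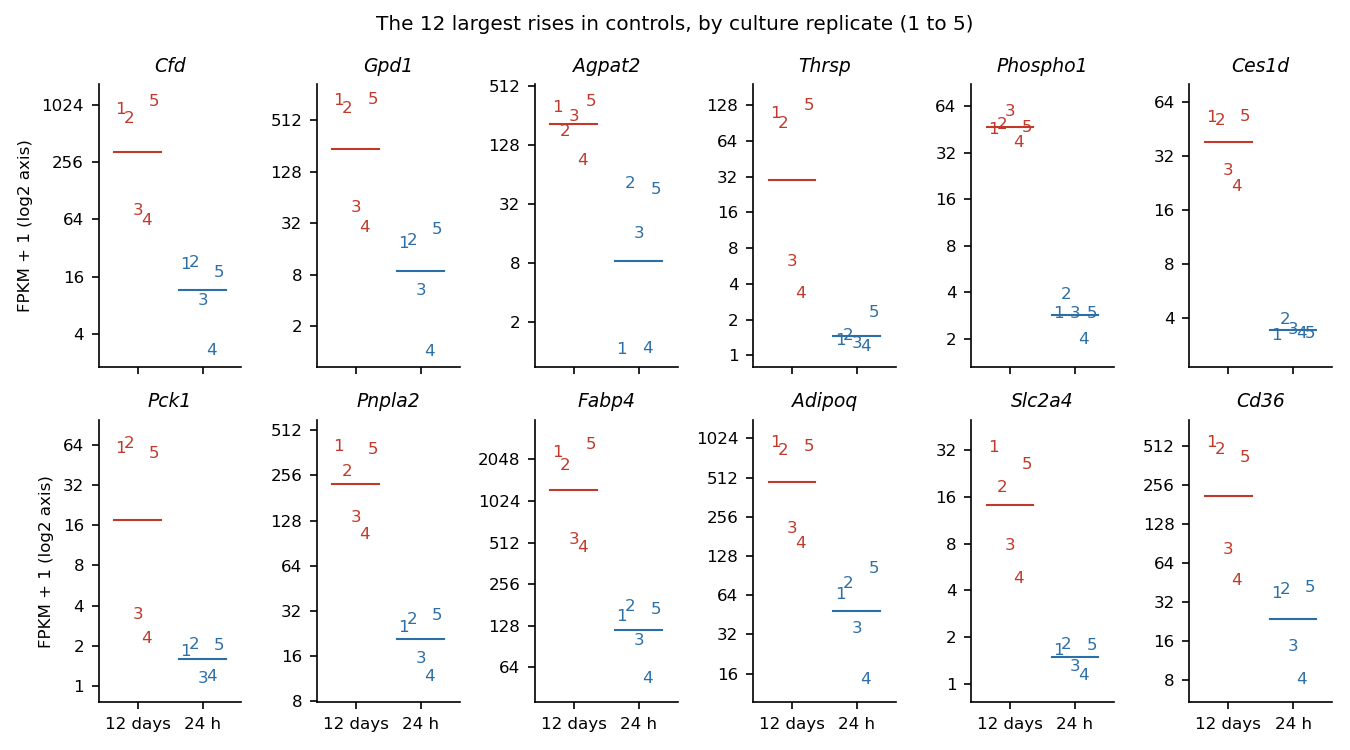
FPKM + 1 (log2 axis) in each library for the 12 genes with the largest rises, controls at 12 days (red) to the left of controls at 24 h (blue), with a digit for each culture replicate and a bar at the group mean of the log2 values. For Cfd the 12-day points run between 61.0 and 1119 FPKM and the 24 h points between 1.70 and 21.3 FPKM, with replicates 3 and 4 the lowest pair at 12 days.

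Fatty acid synthesis changed less as a list. Of 20 tested members 6 rose and 1 fell, with a median of 0.37. Thrsp, a nuclear protein that accompanies lipogenesis, was at 107, 88.9, 5.16, 2.31 and 126 FPKM at 12 days and at 0.327, 0.467, 0.252, 0.194 and 1.30 FPKM at 24 h, a log2 difference of 4.37 ± 1.02 (adjusted p = 0.0094). Scd1, which makes monounsaturated fatty acids, was at 846, 1218, 230, 104 and 1076 FPKM at 12 days and at 54.2, 52.9, 57.8, 68.3 and 56.8 FPKM at 24 h, a difference of 3.05 ± 0.63. Me1 (1.65 ± 0.34) and Slc25a1 (1.52 ± 0.19), which supply NADPH and export citrate from mitochondria, Fasn (1.47 ± 0.48) and Acss2 (1.45 ± 0.33) rose as well. Acaca, the cytosolic acetyl-CoA carboxylase, differed by 0.54 ± 0.39 and Acly by 0.07 ± 0.21, both short of the test. Elovl6 fell (-0.69 ± 0.19). In 18 of the 20 members replicates 3 and 4 were the lowest pair at 12 days. Over replicates 1, 2 and 5 of both times the median was 0.66 with 12 members called higher, and over replicates 3 and 4 of both times it was -0.05 with 2 called higher and 3 lower. Fasn, for instance, was at 275, 248 and 248 FPKM in replicates 1, 2 and 5 at 12 days and at 63.0 and 51.2 FPKM in replicates 3 and 4, against 47.1 to 54.1 FPKM at 24 h.

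Cholesterol synthesis and uptake showed the same division of libraries, with replicates 3 and 4 the lowest pair at 12 days in 17 of 24 members. Over all 5 replicates 2 of 24 members rose, Insig1 (1.34 ± 0.29) and Msmo1 (0.54 ± 0.19, adjusted p = 0.0496, and 0.026 to 0.11 with 1 library left out), and the median was 0.25. Over replicates 1, 2 and 5 the median was 0.70 and 12 members were called higher. Over replicates 3 and 4 it was -0.44 and 6 members were called lower. At 24 h replicates 3 and 4 had the highest means of the list (5.25 and 5.47, against 4.75 to 5.08), and these enter that median. Joined, Dhcr7 rose by 1.02 ± 0.16, against 0.32 ± 0.38 by name.

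Glucose handling was mixed. Slc2a4, the insulin-responsive glucose transporter GLUT4, was at 32.5, 17.4, 6.78, 3.81 and 25.05 FPKM at 12 days and at 0.637, 0.784, 0.300, 0.140 and 0.757 FPKM at 24 h, a log2 difference of 3.25 ± 0.49 (adjusted p = 0.00092). The ubiquitous transporter Slc2a1 differed by -0.15 ± 0.24 and was not called. Of 19 tested genes of insulin response and glucose uptake, 5 rose and 4 fell (median 0.13), where 11.9% of all tested genes rose and 18.7% fell. Gys1 (0.80 ± 0.10), glycogen synthase, Akt2 (0.59 ± 0.11), the insulin-responsive Akt of fat, Foxo1 (0.49 ± 0.08) and Irs2 (0.36 ± 0.07) rose, and Akt1 (-0.30 ± 0.08), Cap1 (-0.31 ± 0.09), Trip10 (-0.42 ± 0.11) and the receptor inhibitor Grb10 (-0.54 ± 0.07) fell. In glycolysis 9 of 16 members rose and none fell, with a median of 0.54. Aldoa, an aldolase, was at 1039, 1006, 855, 855 and 982 FPKM at 12 days and at 288, 292, 309, 332 and 286 FPKM at 24 h, a difference of 1.65 ± 0.08 (adjusted p = 6.4e-06), with no library near the other group. Pfkfb3 (1.82 ± 0.37), which makes the activator of phosphofructokinase, and Ldhb (1.29 ± 0.11) also rose.

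The main regulators of the program rose. Pparg, the nuclear receptor that drives fat cell differentiation, was at 128, 115, 68.8, 59.5 and 115 FPKM at 12 days and at 29.8, 32.8, 30.4, 19.9 and 27.3 FPKM at 24 h, a log2 difference of 1.71 ± 0.23 (adjusted p = 0.00045). Cebpa, its partner, was at 228, 222, 131, 107 and 239 FPKM at 12 days and at 74.5, 69.1, 51.8, 35.4 and 58.9 FPKM at 24 h, a difference of 1.63 ± 0.27. Nr1h3, the gene of the sterol receptor LXR alpha, rose by 1.69 ± 0.34, and smaller rises were found for Cebpb (0.79 ± 0.20), Srebf1 (0.56 ± 0.17) and Klf4 (0.43 ± 0.11). Klf5, an early factor downstream of C/EBP beta, fell by 0.87 ± 0.17 on the log2 scale, and Cebpd differed by -0.71 ± 0.56 with 1 library of 0.170 FPKM, which was not called. Of 13 tested pro-adipogenic regulators 6 rose and 1 fell (median 0.37). Klf15, a later factor that stayed under the level filter, was at 11.1, 9.20, 1.07, 0.602 and 10.98 FPKM at 12 days and at 0.362, 0.271, 0.0711, 0.0697 and 0.259 FPKM at 24 h. Mlxipl, the gene of the glucose-sensing factor ChREBP and also under the filter, was at 3.40, 4.16, 0.253, 0.0912 and 3.62 FPKM at 12 days and at 0 to 0.104 FPKM at 24 h. Both were high in replicates 1, 2 and 5 at 12 days and low elsewhere.

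Of 20 tested regulators that restrain adipogenesis or mark other lineages, 7 fell and 1 rose (median -0.31), where 18.7% of all tested genes fell. Id2 (-1.05 ± 0.26), which blocks helix-loop-helix factors, Zfp521 (-0.88 ± 0.19), Snai2 (-0.67 ± 0.14), Sox9 (-0.67 ± 0.13), Nr2f2 (-0.57 ± 0.11) and Runx1t1 (-0.52 ± 0.16) fell. Dlk1, the preadipocyte factor Pref-1, was at 606, 628, 655, 665 and 814 FPKM at 12 days and at 1084, 937, 977, 1181 and 971 FPKM at 24 h, a fall of 0.61 ± 0.10 (adjusted p = 0.0017), and it stayed over 600 FPKM in every 12-day library. Ddit3, the gene of CHOP, which can bind and silence C/EBP beta, rose by 2.05 ± 0.27 and is described with the stress genes. Joined, 4 members of this list were called higher and 7 lower.

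**Figure D3:**
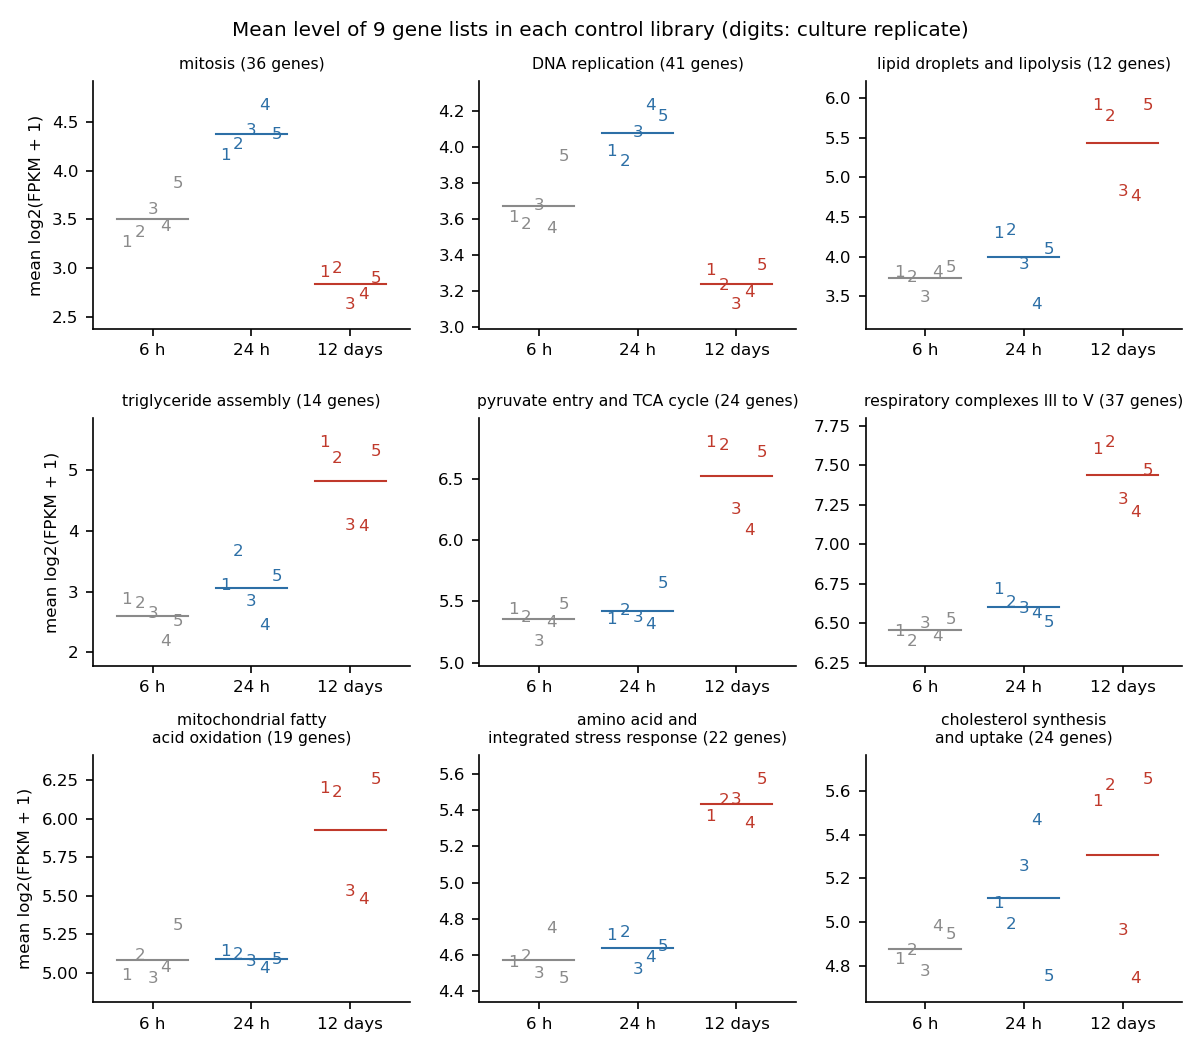
Mean log2(FPKM + 1) of the tested members of 9 gene lists in each control library at 6 h, 24 h and 12 days, with a digit for each culture replicate and a bar at the group mean. Mitosis lies between 3.26 and 3.86 at 6 h, 4.15 and 4.67 at 24 h and 2.62 and 3.00 at 12 days, and lipid droplets and lipolysis between 3.48 and 3.87 at 6 h, 3.39 and 4.32 at 24 h and 4.76 and 5.91 at 12 days.

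Placed beside the controls at 6 h, the fat cell genes and the division genes had different courses. Cfd averaged 3.44 FPKM at 6 h, 13.6 FPKM at 24 h and 581 FPKM at 12 days, and Pparg 17.6 FPKM at 6 h, 28.05 FPKM at 24 h and 97.2 FPKM at 12 days. The mean of the mitosis list was higher in every 24 h library than in any library at 6 h or 12 days. Ccna2, the cyclin of S phase and early mitosis, averaged 14.9 FPKM at 6 h, 30.7 FPKM at 24 h and 8.14 FPKM at 12 days. Cebpb had its lowest mean at 24 h, with 176 FPKM at 6 h, 99.2 FPKM at 24 h and 179 FPKM at 12 days. The 6 h values are a description, since both differences share the 24 h cultures.

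Nuclear genes of the mitochondrion rose too. In the list of pyruvate entry and the TCA cycle 17 of 24 members rose and none fell (median 1.03), and joined sums called 23 of 24 higher. The median was 1.27 over replicates 1, 2 and 5 (17 higher) and 0.65 over replicates 3 and 4 (14 higher, 1 lower). Pcx, pyruvate carboxylase, which feeds oxaloacetate for citrate export, was at 575, 543, 341, 281 and 482 FPKM at 12 days and at 120, 124, 99.0, 81.2 and 110 FPKM at 24 h, a difference of 2.01 ± 0.21. Mpc1, a subunit of the pyruvate carrier, rose by 3.16 ± 0.75 by name and by 1.49 ± 0.22 joined. Citrate synthase, Cs, rose by 1.34 ± 0.17. Sdhb, the iron-sulfur subunit of succinate dehydrogenase, differed by -0.11 ± 0.67 by name, with 10.2 to 74.2 FPKM at 12 days, and rose by 1.13 ± 0.09 joined, with 110 to 133 FPKM at 12 days and 49.5 to 64.2 FPKM at 24 h. Of the enzymes that gate pyruvate dehydrogenase, the kinases Pdk2 (1.35 ± 0.18), Pdk4 (0.63 ± 0.15) and Pdk1 (0.58 ± 0.07) rose, and the kinase Pdk3 (-0.61 ± 0.11) and the phosphatase Pdp1 (-0.46 ± 0.08) fell.

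In the respiratory chain 26 of 37 complex I members rose (median 0.52) and 31 of 37 members of complexes III to V rose (median 0.72), and none fell in either list. Ndufs7 was at 84.9, 93.9, 99.0, 79.5 and 85.3 FPKM at 12 days and at 49.8, 41.5, 36.5, 43.3 and 45.9 FPKM at 24 h, a log2 difference of 1.01 ± 0.09. The largest rises in complex IV were in isoforms known from heart, muscle and brown fat. Cox7a1 was at 9.56, 8.19, 8.11, 4.69 and 10.9 FPKM at 12 days and at 0.510, 0, 0.427, 0.384 and 0.281 FPKM at 24 h, a difference of 2.79 ± 0.20 (adjusted p = 2e-05). Cox8b was at 16.8, 13.9, 3.87, 2.29 and 18.9 FPKM at 12 days and at 0, 0.208, 0.490, 0 and 0 FPKM at 24 h, a difference of 3.10 ± 0.49. Their common counterparts Cox7a2 (0.60 ± 0.08) and Cox8a (0.82 ± 0.08) rose less on this scale. Of 77 mitochondrial ribosomal proteins 35 rose and 1 fell, with a median of 0.29. Mrpl12 (1.08 ± 0.14) and Mrpl38 (0.82 ± 0.09) rose most and Mrps6 fell (-0.37 ± 0.11, adjusted p = 0.029, and 0.027 to 0.07 with 1 library left out). Over replicates 3 and 4 alone 9 of the 77 were called higher and 2 lower.

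The 13 genes encoded by mitochondrial DNA could not be compared. Only 5 of them passed the level filter, none was called, and single genes swung between 0 and high FPKM among replicates. mt-Co1, for instance, was at 0.000737, 3845, 0, 0 and 0 FPKM at 12 days and at 0, 0, 485, 0 and 1302 FPKM at 24 h.

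Genes that use fatty acids and branched-chain amino acids as fuel rose with them. In mitochondrial fatty acid oxidation 15 of 19 members rose and none fell (median 0.89). Acot2 (1.81 ± 0.39), a thioesterase in a locus of 3 genes, and Hadhb (1.38 ± 0.26), the thiolase subunit of the trifunctional protein, led the list. Hadha, its partner, was at 132, 131, 75.4, 79.0 and 133 FPKM at 12 days and at 55.2, 60.6, 50.4, 51.0 and 55.0 FPKM at 24 h, a log2 difference of 0.96 ± 0.18. Cpt1a, the gate of fatty acid entry, differed by -0.27 ± 0.10 without passing the test (adjusted p = 0.056) and passed it joined (-0.27 ± 0.09). In branched-chain amino acid and propionate breakdown 14 of 21 members rose and none fell (median 0.90). Bcat2, the mitochondrial transaminase that starts it, was at 139, 124, 37.3, 29.1 and 115 FPKM at 12 days and at 17.4, 17.9, 16.3, 15.6 and 18.5 FPKM at 24 h, a difference of 2.05 ± 0.42. Aldh6a1 (1.82 ± 0.23) and Mccc1 (1.74 ± 0.30), later in the pathway, followed. Replicates 3 and 4 were the lowest pair at 12 days in 18 of 19 oxidation genes and 17 of 21 amino acid genes. For the oxidation genes the median was 0.47 over replicates 3 and 4 (9 called higher) and 1.18 over replicates 1, 2 and 5 (18 called higher). For the amino acid genes it was 0.58 over replicates 3 and 4 (7 called higher) and 1.14 over replicates 1, 2 and 5 (19 called higher).

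Peroxisome genes rose in 13 of 30 cases and none fell (median 0.54), with Crat (1.38 ± 0.24), carnitine acetyltransferase, and Cat (1.32 ± 0.27), catalase, at the top. Joined sums called 18 higher. Replicates 3 and 4 were the lowest pair at 12 days in 20 of the 30 members, and the median was 0.75 over replicates 1, 2 and 5 (20 higher) and 0.20 over replicates 3 and 4 (5 higher, 1 lower). Of 7 tested thermogenic genes 5 rose, and 9 of the 16 in the table stayed under the filter. Ppargc1a, the coactivator PGC-1 alpha that raises mitochondrial gene expression, was at 9.42, 12.3, 15.4, 13.3 and 10.6 FPKM at 12 days and at 3.13, 3.53, 3.61, 2.48 and 1.55 FPKM at 24 h, a log2 difference of 1.79 ± 0.19 (adjusted p = 0.00011). Here replicates 3 and 4 were not the lowest at 12 days but the highest pair. Kcnk3, a potassium channel of brown fat, rose by 2.82 ± 0.60 by name and by 2.00 ± 0.24 joined. Ucp1, the uncoupling protein that defines the brown fat cell, averaged 0.0089 FPKM at 12 days and was at 0 in all 24 h libraries.

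Genes of cell division made up the most uniform fall. All 36 tested mitosis genes were lower on average at 12 days, 33 were called (none was called higher), and the median was -1.54. In DNA replication 35 of 41 members fell and none rose (median -0.82), where 18.7% of all tested genes fell. As joined sums 37 mitosis genes and 39 replication genes fell. Mitosis had a median of -1.28 over replicates 1, 2 and 5 (32 lower) and -1.84 over replicates 3 and 4 (31 lower). Depdc1a, a gene of spindle control outside these lists, was at 1.30, 1.53, 1.10, 0.986 and 1.27 FPKM at 12 days and at 6.56, 7.17, 7.58, 8.92 and 9.11 FPKM at 24 h, a log2 difference of -1.98 ± 0.11 (adjusted p = 9.1e-06). Ccnb1, the cyclin that starts mitosis, was at 14.5, 15.8, 11.8, 10.6 and 16.02 FPKM at 12 days and at 37.3, 38.9, 45.1, 55.0 and 40.2 FPKM at 24 h, a difference of -1.59 ± 0.14. For both genes the groups lay far apart and no library departed from its group. Mki67, the antigen of the Ki-67 proliferation stain, was at 1.05, 5.04, 3.36, 5.68 and 0 FPKM at 12 days and at 13.9, 14.1, 16.4, 20.6 and 16.1 FPKM at 24 h, a difference of -2.39 ± 0.47 (-1.84 ± 0.11 joined). Kif11, the motor that separates spindle poles, was at 5.36, 5.05, 0.428, 3.46 and 5.26 FPKM at 12 days and at 14.5, 15.98, 18.2, 20.9 and 18.2 FPKM at 24 h, a difference of -2.09 ± 0.38 (-1.73 ± 0.13 joined). Cenpf (-1.97 ± 0.17), of the outer kinetochore, and Ccna2 (-1.81 ± 0.16) followed. Kif20a was too low by name to be tested and fell by 1.97 ± 0.19 on the log2 scale as joined sums.

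The promoters of Mki67 and Kif11 are shown because mitosis genes share short promoter elements, the cell cycle gene homology region (CHR, TTTGAA), bound by the DREAM complex in resting cells and by the MYBL2 complex in dividing ones, and the CCAAT box of NF-Y. The windows hold 250 bases before and 50 bases after the RefSeq start (GRCm38.p6), 5′ to 3′ on the gene's strand, with CHR and CCAAT letters of either strand in capitals. The Mki67 window is chr7:135716330-135716629 (minus strand) and the Kif11 window is chr19:37376132-37376431 (plus strand).

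Mki67: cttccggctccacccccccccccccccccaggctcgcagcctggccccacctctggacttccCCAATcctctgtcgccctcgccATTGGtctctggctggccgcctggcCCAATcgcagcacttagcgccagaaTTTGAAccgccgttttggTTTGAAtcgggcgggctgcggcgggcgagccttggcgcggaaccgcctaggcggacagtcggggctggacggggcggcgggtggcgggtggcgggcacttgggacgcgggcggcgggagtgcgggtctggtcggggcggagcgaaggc

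Kif11: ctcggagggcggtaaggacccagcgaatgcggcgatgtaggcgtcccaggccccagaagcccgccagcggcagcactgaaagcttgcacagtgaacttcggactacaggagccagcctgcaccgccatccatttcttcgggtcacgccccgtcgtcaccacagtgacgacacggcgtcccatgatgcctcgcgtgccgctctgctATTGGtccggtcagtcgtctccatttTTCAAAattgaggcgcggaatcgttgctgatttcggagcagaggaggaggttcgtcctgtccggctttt

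In the Mki67 window CHR letters began at -116 and -98 from the start and CCAAT letters at -188, -166 and -141. In the Kif11 window both elements lay on the reverse strand, CHR at -19 and CCAAT at -45. Of the 36 tested mitosis genes 31 had a window, of which 22 (71.0%) held TTTGAA, against 17.9% of all 32851 windows and 14.1% of the tested genes with a window, and 23 (74.2%) held CCAAT, against 37.4% of all windows and 43.9% of tested genes with one. Of the 41 tested replication genes 33 had a window. The E2F form TTCCCGC was in 14 of these (42.4%), against 4.60% of all windows and 10.2% of tested genes with one, and the form TTGGCGC was in 9 (27.3%), against 2.45% of all windows and 5.31% of tested genes with one. Both strands were searched, the CHR and CCAAT letters do not overlap in the printed windows, and a match is a description, not a site. Windows were found for 72.4% of the tested genes.

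Upstream of division, Ccnd1, cyclin D1 of the G1 phase, was at 24.5, 26.6, 24.5, 29.9 and 28.5 FPKM at 12 days and at 64.6, 59.0, 82.2, 97.3 and 76.3 FPKM at 24 h, a log2 difference of -1.45 ± 0.13 (adjusted p = 4.8e-05). Of 22 tested G1 cyclins, kinases, inhibitors, E2F and Rb family genes, 11 fell and 2 rose (median -0.36). E2f7 (-1.16 ± 0.18), Ccne1 (-0.82 ± 0.13), Rbl1 (-0.79 ± 0.23) and Cdk4 (-0.53 ± 0.09) fell. Rb1, whose protein holds E2F factors silent, rose by 0.74 ± 0.13, and Myc by 0.41 ± 0.08. The inhibitors did not move as 1 group, since Cdkn2d (-0.65 ± 0.11), Cdkn2b (-0.54 ± 0.13) and Cdkn2a (-0.38 ± 0.06) fell, and Cdkn2c (0.73 ± 0.31), Cdkn1a (0.14 ± 0.29) and Cdkn1b (-0.22 ± 0.24) were not called. Cdkn1a was at 65.5 and 68.8 FPKM in replicates 3 and 4 at 12 days, at 24.9 to 28.6 FPKM in the other 12-day libraries and at 31.5 to 41.0 FPKM at 24 h.

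**Figure D4:**
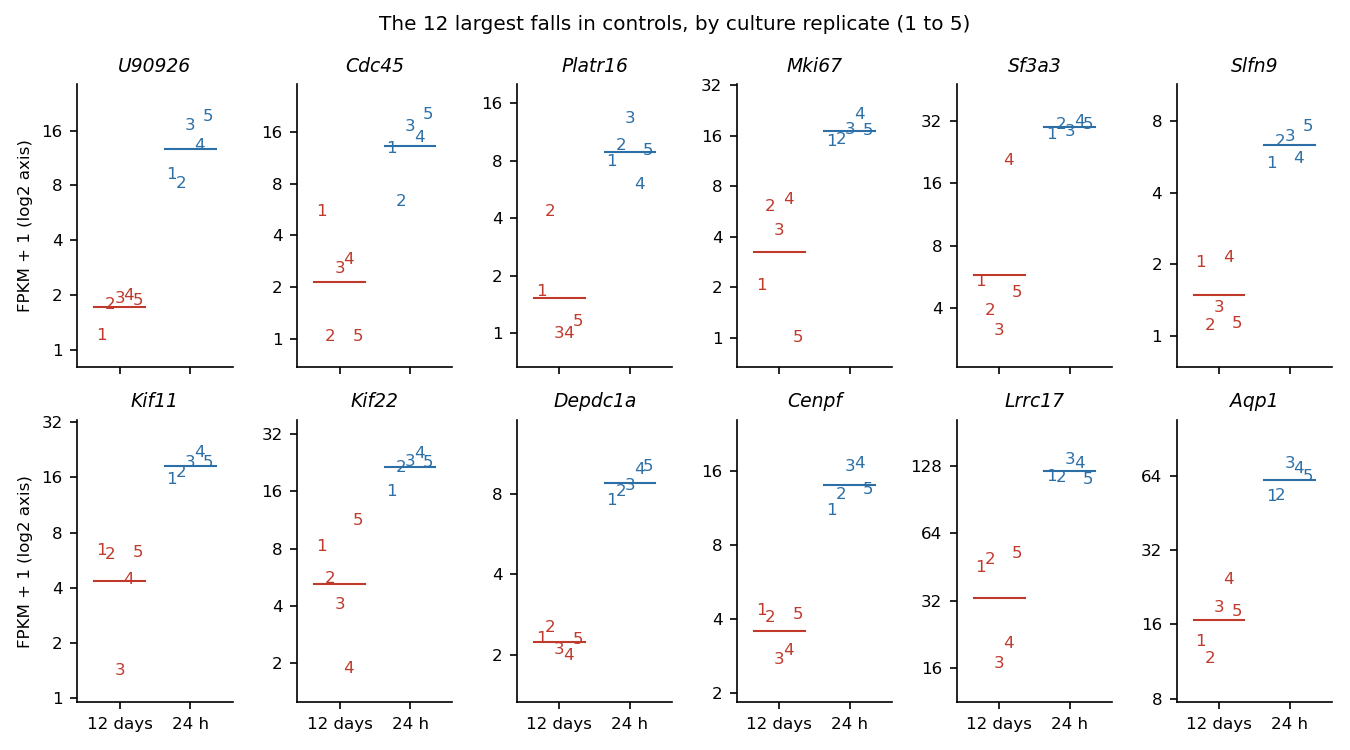
FPKM + 1 (log2 axis) in each library for the 12 genes with the largest falls, controls at 12 days (red) to the left of controls at 24 h (blue), with a digit for each culture replicate and a bar at the group mean of the log2 values. The Depdc1a points lie between 0.986 and 1.53 FPKM at 12 days and between 6.56 and 9.11 FPKM at 24 h.

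The largest falls also held genes outside division. U90926, a transcript annotated by its clone name, was at 0.202, 0.765, 0.917, 0.975 and 0.867 FPKM at 12 days and at 8.23, 7.18, 16.1, 12.3 and 18.1 FPKM at 24 h, a log2 difference of -2.88 ± 0.25 (adjusted p = 4.5e-05). Platr16, a noncoding RNA in a locus of 2 genes, fell by 2.54 ± 0.40, Lrrc17, a secreted leucine-rich protein, by 1.88 ± 0.32 and the water channel Aqp1 by 1.87 ± 0.19. Lrrc17 was at 44.0, 48.0, 15.7, 19.4 and 50.8 FPKM at 12 days and at 115, 113, 137, 130 and 111 FPKM at 24 h. Aqp1 was at 12.7, 10.6, 17.7, 23.4 and 17.05 FPKM at 12 days and at 51.5, 51.9, 70.7, 67.5 and 62.5 FPKM at 24 h. The falls of Cdc45 (-2.65 ± 0.49), Sf3a3 (-2.37 ± 0.43), Slfn9 (-2.09 ± 0.22) and Kif22 (-2.03 ± 0.42) were smaller as joined sums, at -0.93 ± 0.12 for Cdc45, -0.59 ± 0.09 for Sf3a3, -1.06 ± 0.14 for Slfn9 and -1.44 ± 0.15 for Kif22, each still called.

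Genes of the fibroblast and its progenitor state fell in part. S100a4, a calcium-binding protein of motile fibroblasts, was at 676, 698, 670, 748 and 657 FPKM at 12 days and at 1777, 1715, 1978, 2107 and 1732 FPKM at 24 h, a log2 difference of -1.43 ± 0.09 (adjusted p = 1.2e-05) in a locus of 3 genes. Ly6a, the surface antigen Sca-1, was at 12.0, 13.6, 40.3, 44.3 and 11.9 FPKM at 12 days and at 50.1, 52.8, 74.5, 66.8 and 48.4 FPKM at 24 h, a difference of -1.45 ± 0.39. Its replicates 3 and 4 lay closest to the 24 h libraries. Cd44 (-1.11 ± 0.10), Prrx1 (-1.08 ± 0.27) and Pdgfra (-0.52 ± 0.12) fell too, and none of the 11 tested progenitor genes rose (median -0.52). In the contractile list 8 of 17 members fell and Vcl rose by 0.23 ± 0.07 (adjusted p = 0.026, and 0.0073 to 0.06 with 1 library left out), with a median of -0.37. The receptor kinase Axl (-0.81 ± 0.20), the tropomyosins Tpm4 (-0.76 ± 0.11) and Tpm1 (-0.65 ± 0.17) and the actin crosslinker Actn1 (-0.53 ± 0.15) fell, and Tpm2 (-0.91 ± 0.20) fell by name but was not called joined (-0.35 ± 0.16). Acta2, smooth muscle actin, averaged 525 FPKM at 6 h, 85.9 FPKM at 24 h and 66.2 FPKM at 12 days, and its fall after 24 h (-0.37 ± 0.12, adjusted p = 0.038, and 0.020 to 0.088 with 1 library left out) was small beside that range.

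In the matrix, chains and their processing enzymes differed. Of 18 tested collagen chains 3 rose and 2 fell, where 11.9% of all tested genes rose and 18.7% fell. Their median of -0.04 became 0.04 with median-ratio scaling, -0.08 over replicates 1, 2 and 5 and 0.34 over replicates 3 and 4. Both chains of the basement membrane collagen IV rose, Col4a1 by 0.71 ± 0.13 and Col4a2 by 0.61 ± 0.14. Col4a1 was at 589, 519, 751, 768 and 590 FPKM at 12 days and at 412, 419, 379, 318 and 423 FPKM at 24 h. Col15a1 rose by 0.89 ± 0.27 (adjusted p = 0.03, and 0.012 to 0.07 with 1 library left out). Col12a1 (-1.02 ± 0.22) and Col23a1 (-0.92 ± 0.08) fell, and the main fibrillar chain Col1a1 differed by 0.04 ± 0.12. Among processing and crosslinking genes 9 of 20 fell and Plod2 rose (0.39 ± 0.10), with a median of -0.32. Pcolce2 (-1.73 ± 0.15), P4ha3 (-1.499 ± 0.17), Lox (-1.07 ± 0.11), the crosslinking oxidase, and Bmp1 (-0.98 ± 0.20), the procollagen C-proteinase, fell most. Of 31 other matrix proteins 8 fell and 2 rose (median -0.13), where 18.7% of all tested genes fell and 11.9% rose. With 1 library left out 5 to 9 fell, the lowest count without replicate 2 at 12 days, and with all 30 libraries in the fit 3 fell. The elastic fibre gene Efemp2 (-0.96 ± 0.16), the proteoglycans Vcan (-0.94 ± 0.27, adjusted p = 0.025, and 0.0072 to 0.059 with 1 library left out), Aspn (-0.66 ± 0.08) and Dcn (-0.34 ± 0.09) fell. Sparc fell by name (-0.72 ± 0.22) and was not called joined (-0.23 ± 0.11), and so did Tnc (-0.78 ± 0.22 by name, -0.56 ± 0.29 joined). Thbs1 rose by 0.50 ± 0.17 (adjusted p = 0.048, and 0.0015 to 0.096 with 1 library left out) and Lamb1 by 0.38 ± 0.11 (adjusted p = 0.027, and 0.021 to 0.06).

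Proteases went both ways, with 4 of 18 tested genes higher and 5 lower (median -0.24), where 11.9% of all tested genes rose and 18.7% fell. With all 30 libraries in the fit 1 was called higher and 3 lower. Mmp11, known as stromelysin 3, was at 29.6, 30.5, 63.3, 39.8 and 36.1 FPKM at 12 days and at 10.0, 10.4, 9.47, 9.05 and 9.82 FPKM at 24 h, a log2 difference of 1.87 ± 0.18 (adjusted p = 7.3e-05). Mmp13, a collagenase, was at 73.2, 75.1, 98.0, 93.5 and 40.2 FPKM at 12 days and at 36.3, 36.8, 15.8, 9.96 and 23.4 FPKM at 24 h, a difference of 1.69 ± 0.37. For both genes replicates 3 and 4 were the highest 12-day libraries. The inhibitors Timp1 (-0.96 ± 0.12) and Timp3 (-0.65 ± 0.12) and the plasminogen activator Plat (-0.92 ± 0.14) fell.

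Genes of the integrated stress response, in which eIF2 alpha phosphorylation favours translation of the factor ATF4, rose at 12 days. Of 22 tested members 15 rose and none fell (median 0.61), with a median of 0.55 over replicates 1, 2 and 5 (18 higher) and 0.66 over replicates 3 and 4 (13 higher, 1 lower). Trib3, a pseudokinase induced by ATF4 and CHOP, was at 54.0, 57.3, 54.0, 48.1 and 62.1 FPKM at 12 days and at 11.7, 10.3, 8.85, 8.17 and 7.66 FPKM at 24 h, a log2 difference of 2.45 ± 0.11 (adjusted p = 3.6e-06). Atf3 was at 5.96, 5.87, 7.78, 6.04 and 8.07 FPKM at 12 days and at 0.0607, 1.09, 0.0393, 0.0439 and 0 FPKM at 24 h, a difference of 2.69 ± 0.21. Ddit3 was at 89.4, 101, 206, 182 and 104 FPKM at 12 days and at 38.6, 42.5, 22.3, 23.9 and 29.5 FPKM at 24 h, a difference of 2.05 ± 0.27. All 3 genes separated the times in every library, and Ddit3 was highest in replicates 3 and 4. Atf4 itself (0.77 ± 0.08), Chac1 (1.504 ± 0.11), Nupr1 (1.27 ± 0.11) and Mthfd2 (0.90 ± 0.12) rose, as did Asns (0.43 ± 0.13).

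Chaperones of the endoplasmic reticulum did not rise with them as a list. Of 23 tested members 5 rose and 4 fell (median 0.07), where 11.9% of all tested genes rose and 18.7% fell. Ero1l (1.96 ± 0.16), the oxidase that makes disulfide bonds, was at 65.4, 73.3, 75.7, 53.4 and 51.2 FPKM at 12 days and at 19.9, 18.6, 13.8, 11.6 and 14.7 FPKM at 24 h. Dnajb9 (0.88 ± 0.13) and Xbp1 (0.54 ± 0.08) rose, Hspa5, the chaperone BiP, differed by 0.16 ± 0.11, and Pdia3 (-0.36 ± 0.05) and Hsp90b1 (-0.30 ± 0.07) fell. Among antioxidant genes 8 of 24 rose and 1 fell (median 0.25). Hmox1, heme oxygenase, was at 142, 184, 626, 512 and 152 FPKM at 12 days and at 86.2, 85.5, 71.5, 78.5 and 66.8 FPKM at 24 h, a log2 difference of 1.76 ± 0.41 in which replicates 3 and 4 were by far the highest. The mitochondrial enzymes Sod2 (1.05 ± 0.10) and Prdx3 (0.92 ± 0.12) rose, and Prdx4 fell (-0.38 ± 0.06). Sod1 differed by -0.28 ± 0.90 by name and rose by 0.50 ± 0.08 joined.

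**Figure D5:**
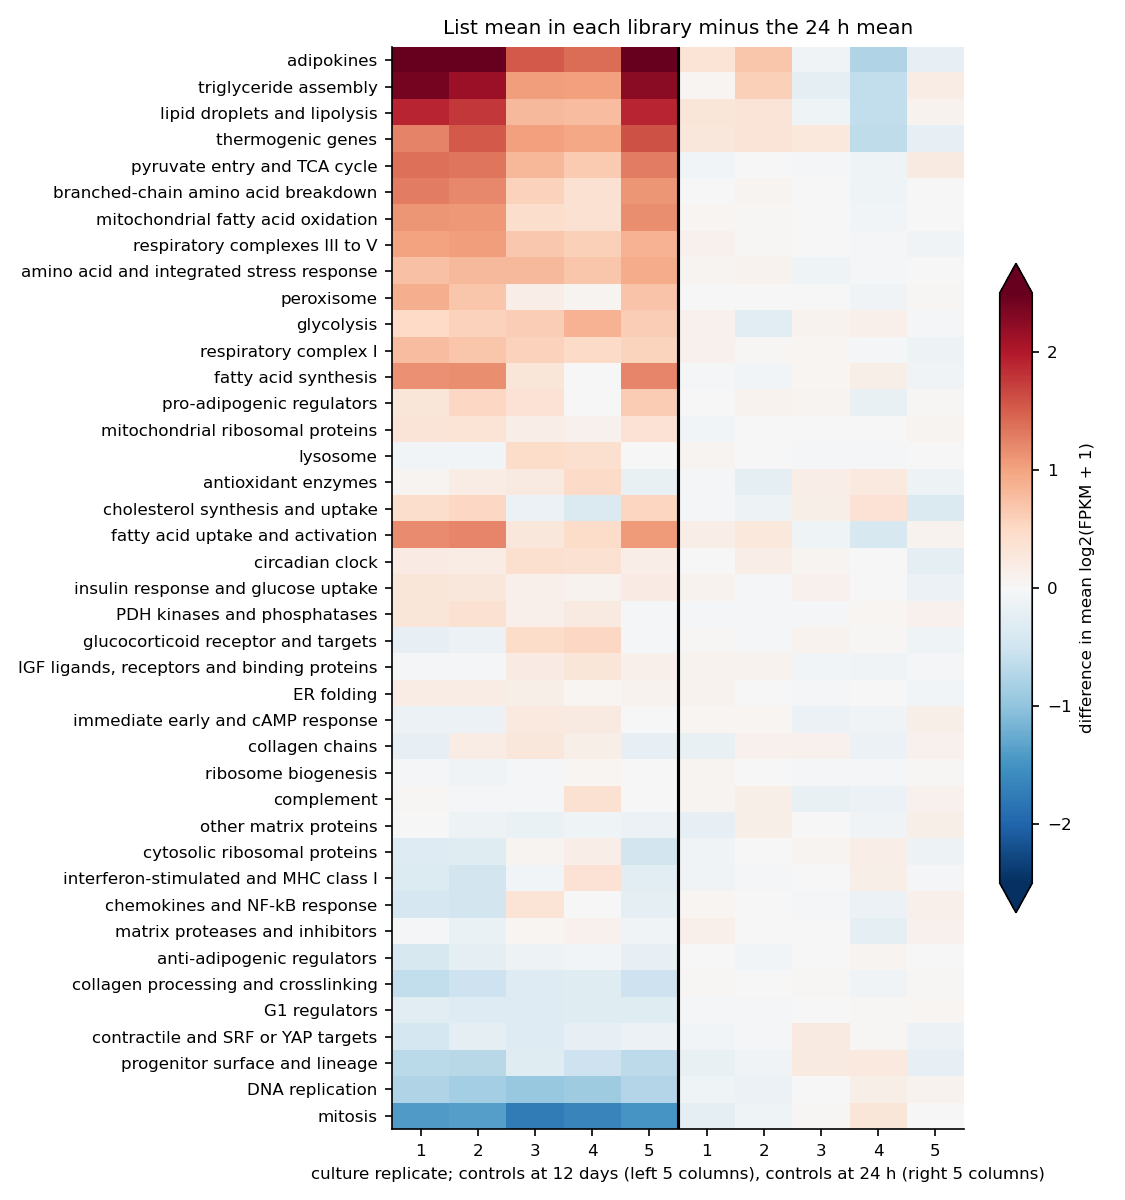
Mean log2(FPKM + 1) of the tested members of each list in each library, given as the difference from the mean of the 24 h libraries, with the 12-day libraries in the left columns and the 24 h libraries in the right columns. Mitosis is low and the TCA cycle is high in all 12-day libraries, and for cholesterol synthesis and uptake replicates 1, 2 and 5 at 12 days are above, and replicates 3 and 4 at 12 days below, the 24 h mean.

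Several other lists had different medians in the 2 sets of libraries. Of all tested genes 11.9% were called higher and 18.7% lower, and replicates 3 and 4 were the highest pair at 12 days in 25.1%. Lysosome genes, of which 7 of 29 rose and 2 fell over all replicates (median 0.29), had a median of -0.08 over replicates 1, 2 and 5 (2 higher, 9 lower) and of 0.56 over replicates 3 and 4 (13 higher, 1 lower), and replicates 3 and 4 were the highest pair at 12 days in 22 of 29 members. The channel Mcoln1 (0.95 ± 0.24) and the protease Ctsd (0.60 ± 0.10) rose, and the acid lipase Lipa (-0.39 ± 0.06) and the glucuronidase Gusb (-0.38 ± 0.11, adjusted p = 0.029, and 0.0027 to 0.067 with 1 library left out) fell. Interferon and MHC class I genes, with 1 of 24 higher and 2 lower (median -0.18), had -0.49 over replicates 1, 2 and 5 and 0.01 over replicates 3 and 4. Irf7 rose (0.88 ± 0.14), and the RNA sensor Ddx58 (-0.60 ± 0.13) and Irf1 (-0.45 ± 0.12) fell. Chemokine and NF-kB genes, with 1 of 18 higher and 6 lower (median -0.21), had -0.49 over replicates 1, 2 and 5 and 0.15 over replicates 3 and 4. Nfkb2 (-0.87 ± 0.16), Vcam1 (-0.79 ± 0.09) and Csf1 (-0.71 ± 0.20) fell, and Cxcl12 rose by 1.22 ± 0.34 (adjusted p = 0.023, and 0.0063 to 0.054 with 1 library left out). Saa3, an acute phase protein, averaged 4.51 ± 2.26 FPKM at 12 days and 25.3 ± 17.3 FPKM at 24 h (SD, n = 5 each), a difference of -1.91 ± 0.64 (adjusted p = 0.045, and 0.0043 to 0.1 with 1 library left out) that was 0.08 over replicates 3 and 4. Of cytosolic ribosomal proteins 4 of 72 fell and none rose (median -0.16), where 18.7% of all tested genes fell. They were highest at 12 days in replicates 3 and 4 in 58 of 72 members, against 25.1% of all tested genes. Their median was -0.23 over replicates 1, 2 and 5 (18 lower) and -0.06 over replicates 3 and 4 (1 lower). With 1 library left out 1 to 7 were called lower, and with the replicate number as a block 10. With median-ratio scaling none of the 72 was called lower and 1 was called higher, by the same test. Of the calls, Rps23 (-0.43 ± 0.14, adjusted p = 0.035, and 0.014 to 0.08) and Rps18 (-0.31 ± 0.09, adjusted p = 0.031, and 0.027 to 0.072), were lost in some fits with 1 library left out. The median also changed sign between the sets for matrix proteases (-0.36 over replicates 1, 2 and 5, 0.02 over replicates 3 and 4) and for immediate early genes (-0.19 over replicates 1, 2 and 5, 0.18 over replicates 3 and 4). It did so for complement (-0.14 over replicates 1, 2 and 5, 0.12 over replicates 3 and 4) and ribosome biogenesis (-0.08 over replicates 1, 2 and 5, 0.08 over replicates 3 and 4). These 2 sets come from the values and not from the labels, and the difference between them was not tested.

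Small medians, from -0.12 (complement) to 0.19 (circadian clock), were found in the lists that follow, although single genes moved further. Of all tested genes 11.9% rose and 18.7% fell. Of 8 tested IGF genes Igfbp3 (0.89 ± 0.21) and Igf2 (0.61 ± 0.07) rose and Igf1 fell (-0.55 ± 0.14). Complement C4b (0.74 ± 0.18) and C3 (0.68 ± 0.16) rose and C1s1 fell (-0.36 ± 0.11, adjusted p = 0.032, and 0.009 to 0.074 with 1 library left out). Among 9 tested glucocorticoid receptor targets and the receptor itself, Hsd11b1 (1.40 ± 0.39), the enzyme that regenerates active glucocorticoid, and Klf9 (0.46 ± 0.11) rose, and Sgk1 (-0.64 ± 0.14), Tsc22d3 (-0.45 ± 0.12) and Fkbp5 (-0.42 ± 0.13) fell. Their median of 0.08 was -0.51 over replicates 1, 2 and 5 and 0.34 over replicates 3 and 4. In the circadian clock list 5 of 16 rose, among them Nfil3 (0.88 ± 0.08), and the core factor Arntl differed by -0.05 ± 0.21 by name and rose by 0.50 ± 0.13 joined. In ribosome biogenesis 2 of 31 rose and 4 fell, with a median of -0.05 that was 0.03 with median-ratio scaling. Rcl1 (0.31 ± 0.08) rose and Nop56 (-0.40 ± 0.08) fell. Nhp2 rose by 0.32 ± 0.10 (adjusted p = 0.042, and 0.021 to 0.094 with 1 library left out), but differed by -0.0052 when read from its most abundant transcript. The polymerase I subunit Polr1b fell (-0.37 ± 0.12, adjusted p = 0.041, and 0.0043 to 0.09, with the call lost in 9 of 10 such fits). Of 14 tested immediate early and cAMP response genes Dusp1 rose (0.85 ± 0.14) and Pde4d fell (-0.23 ± 0.06).

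Members below the level filter numbered 183, of which 48 reached 1 FPKM in at least 1 library. Some fat cell genes among them were seen at 12 days and hardly at 24 h. Pik3ca, another listed gene below the filter, went the other way, at 0.235 to 0.598 FPKM at 12 days and 0.339 to 6.38 FPKM at 24 h. Aqp7, the glycerol channel of fat cells, was at 4.77, 5.15, 0.224, 0.534 and 4.41 FPKM at 12 days and at 0 to 0.328 FPKM at 24 h. Hcar1, the lactate receptor that restrains lipolysis, was at 3.15, 2.23, 0.187, 0.121 and 3.74 FPKM at 12 days and at 0.0263 to 0.188 FPKM at 24 h. Pnpla3 (0.104 to 5.21 FPKM) and the beta-3 adrenergic receptor gene Adrb3 (0.0861 to 2.11 FPKM) likewise exceeded 1 FPKM at 12 days only in libraries other than replicates 3 and 4, and were at most 0.0694 FPKM (Pnpla3) and 0.0532 FPKM (Adrb3) at 24 h.

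The labelled cell state was checked on cell type markers. The 8 adipocyte markers summed to between 775 and 5101 FPKM at 12 days and to between 92.8 and 343 FPKM at 24 h, and all 7 tested members rose. Endothelial and epithelial markers summed to at most 0.578 FPKM at 12 days and 0.232 FPKM at 24 h, and none was tested. The leukocyte and macrophage markers Ptprc and Adgre1 and the muscle determination genes Myod1 and Myog were at or near 0 at both times, while Des (1.82 ± 0.18, at 4.64 to 9.56 FPKM at 12 days and 0.789 to 1.68 FPKM at 24 h) and Cd68 (1.00 ± 0.24, at 1.02 to 3.62 FPKM at 12 days and 0.421 to 0.753 FPKM at 24 h) rose. The 9 osteoblast markers summed to between 6.36 and 8.63 FPKM at 12 days and between 5.80 and 8.31 FPKM at 24 h. Most of this was Runx2, which was not called. Next at 12 days came Alpl, with a mean of 0.881 FPKM at 12 days and 0.135 FPKM at 24 h. Phex averaged 0.534 FPKM at 12 days and 0.146 FPKM at 24 h. The rest averaged at most 0.249 FPKM at either time, and only Runx2 was tested. The 8 chondrocyte markers, of which Sox9 fell, summed to between 9.52 and 13.4 FPKM at 12 days and between 15.1 and 22.04 FPKM at 24 h. The 7 macrophage markers summed to between 3.00 and 6.58 FPKM at 12 days and between 1.23 and 5.32 FPKM at 24 h, and the 8 skeletal muscle markers to between 4.77 and 9.72 FPKM at 12 days and between 1.00 and 1.87 FPKM at 24 h. The 7 smooth muscle markers summed to between 67.9 and 86.6 FPKM at 12 days and between 78.0 and 112 FPKM at 24 h.

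A promoter of the droplet genes is shown for comparison with those of mitosis, since C/EBP alpha and PPAR gamma act on this list in fat cells. Of 12 tested droplet genes 11 had a window. The C/EBP letters TTGCNNAA were in 2 of them (18.2%), Plin1 and Cidec, against 10.8% of all windows and 9.53% of tested genes with one, and the PPAR direct repeat, AGGNCA repeated after any base, was in 0 of 11, against 0.381% of all windows and 0.2005% of tested genes with one. The second of 2 Cidec windows, chr6:113434715-113435014 (minus strand, GRCm38.p6, RefSeq), holds the C/EBP letters, in capitals, from -198.

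Cidec: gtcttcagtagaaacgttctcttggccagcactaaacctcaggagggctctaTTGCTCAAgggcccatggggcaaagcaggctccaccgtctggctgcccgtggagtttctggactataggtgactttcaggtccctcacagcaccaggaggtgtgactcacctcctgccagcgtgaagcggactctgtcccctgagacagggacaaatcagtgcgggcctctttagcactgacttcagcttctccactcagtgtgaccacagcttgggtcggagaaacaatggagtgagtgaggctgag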

How the data were processed

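The 10 control libraries compared here are poly(A) RNA-seq libraries of 3T3-L1 cultures, made with a directional kit per the labels' protocols, and the sources used here do not say whether quantification used the strand. The submitters' processing notes name HISAT, HISAT2, StringTie and the build GRCm38, without versions. The authors deposited 1 table of FPKM values for 150146 assembled transcripts in 30 libraries, of which 133887 carry a gene name. Because 11 deposited FPKM values were slightly below 0 (lowest -7e-05), these were set to 0. Columns were matched to samples by the sample names, and no column was left unused.

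From there, FPKM was summed over the transcripts of each gene name and taken as log2(FPKM + 1). Of 53350 named genes, 11706 with at least 1 FPKM in at least 5 of the 10 libraries were tested with limma 3.58.1 (trend, two-sided, Benjamini-Hochberg over all tested genes, threshold 0.05) in R 4.3.3, and the fit had 8 residual degrees of freedom. It was tested on simulated data. Tables and figures were made with Python 3.11.15, pandas 2.3.3 and matplotlib 3.10.9. FPKM keeps no read depth, so no counting error can be given, and the spread over 5 replicates is the only error. Values after ± are SE of the difference unless SD is written. The genes named first were called, had groups that did not overlap and showed the 12 largest changes in each direction, with a mean of at least 5 FPKM in the higher group, leaving out mitochondrial, ribosomal RNA and predicted genes. In each list the 2 called members with the largest change in each direction were named, with others where needed to describe the list. Some genes that this rule would name are not reported here. The 42 gene lists and 8 marker lists, the members and the comparison were chosen with earlier results of these data known. Alternatives were the scaling, the pseudocount, the filter, the transcripts summed, the libraries in the fit, a replicate block and leaving out each library. Promoter windows are RefSeq's, matched by gene symbol or synonym.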

Additional observations from a re-analysis of the deposited data

Results flagged for a closer look

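In 7 of 132 groups of 5 libraries examined (5.30%), 1 library lay far from the other 4, with a gap to its nearest neighbour of more than 0.71 of the range of the group. Chance gives this in about 1 of 20 groups. At 12 days the level of U90926 was 0.202 FPKM in replicate 1, far below the others. The level of Sf3a3 was 19.5 FPKM in replicate 4 at 12 days, far above the others. The level of Kif11 was 0.428 FPKM in replicate 3 at 12 days, far below the others. As mean log2(FPKM + 1) of the tested members, complement was 4.77 in replicate 4 at 12 days, the highest. At 24 h the mean of the mitochondrially encoded genes was 1.497 in replicate 1, that of peroxisome genes was 3.51 in replicate 4 and that of collagen processing genes was 5.81 in replicate 4, each the lowest of its group.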

How the results depend on the processing

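The number of genes called higher at 12 days was 1391 and the number called lower was 2186. Leaving out 1 library gave 1159 to 1449 higher and 1789 to 2218 lower. With replicates 3 and 4 of both times alone the counts were 681 higher and 805 lower, in a fit with fewer libraries, and with replicates 1, 2 and 5 alone they were 1381 higher and 1944 lower. When each gene was read from its most abundant transcript alone, 1455 genes were called lower, and the cause was not tested. The other scalings, pseudocounts, filters and fits kept both counts within 1.5 times. With the replicate number as a block the counts were 1307 higher and 1937 lower. Libraries of the same number correlated by 0.071, 0.035, 0.046, 0.083 and 0.068 for replicates 1 to 5 in their deviations from the group means. None was above the bound of 0.1, so the numbers were not taken to pair the libraries, although 4 of 5 correlated best with their own number. Of 131 named genes, chosen by the rules of largest change, 65 were called under each of the 27 alternatives in which they were tested, and some were not tested in every alternative. Calls of the other genes given in the text were not followed with 1 library left out. Signs reversed in 3 cases, Saa3 (0.076) and Msmo1 (-0.11) with replicates 3 and 4 alone and Nhp2 (-0.0052) with the most abundant transcript alone, and the cause was not tested. In the 10 fits that each left out 1 library, 19 of the 131 genes lost their call at least once. Cxcl12 lost it without replicate 3 at 24 h, Vcl without replicate 2 at 12 days or replicates 2 or 5 at 24 h, and Lamb1 without replicates 1, 4 or 5 at 24 h. Pck1, Cidec and Vcan lost it without replicates 1, 2 or 5 at 12 days or replicates 3 or 4 at 24 h. Of 39 list counts of at least 3 genes, 34 stayed within 1.5 times in each of these fits. FPKM gives no depth, so low levels cannot be set against a counting limit.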
